A study of Homo sapiens with 10 samples.

Results

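The plasminogen activator system was examined through 5 genes, PLAU, PLAUR, PLAT, SERPINE2 and SERPINB2, out of 61533 genes in the count tables. They were picked by name, with earlier results of these same libraries known, so the difference between the lines in these 5 genes is given as a description, without p-values, and their calls in the test of all genes are only counted. T24, a human bladder cancer cell line, was compared with T24R2, a cisplatin-resistant line that the study's methods describe as derived from T24 by serial exposure to the drug, in 5 RNA-seq libraries of each line. All cells were taken on day 3 of culture, and the labels give 1 drug-free serum-containing RPMI medium for both lines, whereas the methods of the study keep T24R2 in cisplatin. The line and exposure to cisplatin therefore cannot be told apart, and each group is 1 line, with nothing in the labels saying that its replicates were separate cultures. Measures of spread then describe these libraries and may be technical. Library totals were between 9257843 and 10247941 fragments in T24 and between 9591379 and 10840954 in T24R2. T24R2 replicate 3 stood apart from its line. Its 4 pairs with the other T24R2 libraries had a chi-square per degree of freedom of 3.98 to 6.51, against 1.99 to 3.35 for the other pairs of that line, and mitochondrial genes took 2.97% of its counts, against 2.35% to 2.58% in the rest. Without it, the log2 fold changes were -1.47 for PLAU, -1.74 for PLAUR, -3.97 for PLAT, 0.63 for SERPINE2 and -2.58 for SERPINB2. Of the 108 other genes of the pathway described with them, 10 were then called higher and 33 lower, and of the 30 nearest genes on the chromosomes 10 higher and 11 lower.

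Plasminogen activators are serine proteases that cut plasminogen, a circulating proenzyme, into plasmin, which breaks down fibrin and activates matrix proteases and growth factors outside the cell. Urokinase is usually held at the cell surface by a lipid-anchored receptor, where cell-bound plasminogen is converted, and tissue-type plasminogen activator is best known for dissolving clots. Serpins shut the activators down by forming covalent complexes, which are then taken up by endocytic receptors. PLAU encodes urokinase (uPA), PLAUR its receptor (uPAR), and PLAT tissue-type plasminogen activator (tPA). SERPINE2 encodes protease nexin-1, an extracellular inhibitor of thrombin, urokinase and tPA, and SERPINB2 encodes plasminogen activator inhibitor 2, much of which stays inside the cell.

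The stretches before the start sites of 4 of the 5 genes are shown because these genes moved in both directions between the lines. They were taken from RefSeq promoter sequences on GRCh38.p14. PLAT was left out of this search beforehand, so nothing is said of its start sites, and the other 4 genes had 6 start sites. The 250 bases before each start were searched on both strands for the letters of 4 elements, AP-1, E-box, TATA box and GC box, whose matches do not overlap one another in these windows, and every complete match within a stretch is in capitals.
SERPINB2, chr18:63887579-63887704, + strand: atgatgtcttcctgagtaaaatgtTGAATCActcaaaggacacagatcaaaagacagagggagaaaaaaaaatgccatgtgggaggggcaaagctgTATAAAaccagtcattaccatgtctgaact
PLAUR, chr19:43670338-43670366, - strand: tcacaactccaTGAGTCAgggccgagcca
PLAU, chr10:73911055-73911082, + strand: gggagggagccGGGCGGgagagggaggg
SERPINE2, chr2:224031499-224031589, - strand: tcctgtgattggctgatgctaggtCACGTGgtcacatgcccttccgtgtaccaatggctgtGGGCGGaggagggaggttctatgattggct

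The AP-1 letters searched were TGANTCA. They began 102 bases before the SERPINB2 start and 186 bases before the PLAUR start, and neither start site of PLAU or SERPINE2 had them in its window. Of 35116 start sites in the table, 6.57% held the AP-1 letters in the same window. SERPINB2 also had a TATA box, TATAAA, beginning 30 bases before its start, and 10.7% of all starts had one in the window. PLAU held 3 GC boxes, read as GGGCGG, before 1 of its start sites, and 42.6% of all starts had at least 1. SERPINE2 held 1 GC box before the start shown and 2 before its other start. It also held a single E-box, with the letters CACGTG, found before 6.34% of all starts. The stretches of PLAUR and PLAU lie inside annotated exons, counted over all genes on both strands, and the genes of these exons were not told apart. A match is a description of letters and not evidence that a factor binds there.

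Transcripts of both proteases, of the urokinase receptor and of SERPINB2 were lower in T24R2, and those of SERPINE2 were higher. All 5 genes passed the filter on low counts, 4 were called lower and 1 higher, and in 5 of 5 the libraries of the lines did not overlap in CPM, as in 61.2% of all tested genes (9902 of 16181). A gene was called when the edgeR quasi-likelihood test gave a Benjamini-Hochberg adjusted p below 0.05 with a log2 fold change beyond 0.5 in either direction. By that rule 8309 of 16181 tested genes were called (51.4%), with 4027 higher (24.9%) and 4282 lower (26.5%), and since the 5 genes were chosen on this contrast nothing is read from either count. Without scaling beyond library size the split of all genes was 5206 higher and 3431 lower. The median log2 fold change of the 5 genes was -1.74, against 0.01 over all tested genes.

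PLAT (ENSG00000104368.19, chr8:42174718-42207709, - strand, hg38) had the widest difference between the lines. In CPM, counts scaled to the TMM-adjusted size of the library, the T24 libraries were at 2250, 2120, 2130, 2350 and 2120, and the T24R2 libraries at 140, 133, 137, 135 and 151. Every T24R2 library lay far below every T24 library. Replicate 4 was the highest library of T24 and replicate 5 the highest of T24R2. The mean of 5 libraries was 2190 ± 102 in T24 and 139 ± 6.96 in T24R2 (± SD), so that T24R2 held 6.35% of the T24 level. The log2 fold change was -3.98 (SE 0.05), the 417th largest fall among the tested genes. PLAT took 0.207% of all counts in T24 and 0.0147% in T24R2. Since these are bulk libraries, fewer cells with a transcript and less of it per cell cannot be told apart.

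PLAU (ENSG00000122861.16, chr10:73909177-73917496, + strand) read 530, 551, 523, 489 and 550 CPM in T24 and 184, 192, 192, 191 and 195 CPM in T24R2. The T24R2 libraries were closely grouped at 36.1% of the T24 mean. The means were 529 ± 25.3 and 191 ± 4.22 CPM (SD, n = 5 each), and the log2 fold change was -1.47 (SE 0.04). C10orf55, a gene on the opposite strand, shares 915 bases of exon with PLAU, 31.0% of the exon bases of PLAU, and also fell, with a log2 fold change of -1.25 (SE 0.05, adjusted p = 2.2e-23). Its mean count was 2030 in T24 and 1000 in T24R2. The authors counted with strand option 1, but the library kit is not described as marking strand, and without strand the reads of these overlapping genes cannot be told apart. With the C10orf55 counts taken off, the log2 ratio of PLAU was -1.65. Here and below all counts of C10orf55 were taken off, although only 36.4% of its exon length is shared with PLAU. Such values may therefore remove too much from PLAU and are not a corrected level.

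PLAUR (ENSG00000011422.12, chr19:43646095-43670547, - strand) stood at 77.2, 84.6, 86.2, 73.1 and 94.7 CPM in T24 and at 25.1, 24.7, 25.3, 25.3 and 24.3 CPM in T24R2. The T24R2 libraries were all below the lowest T24 library and varied little among themselves, where the coefficient of variation was 1.8%, the smallest of the 5 genes in either line. Means were 83.2 ± 8.37 and 25.0 ± 0.45 CPM (SD, n = 5 each), and the log2 fold change was -1.74 (SE 0.07). Urokinase and its receptor were thus at 36.1% and 30.0% of their T24 levels.

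SERPINB2 (ENSG00000197632.9, chr18:63871692-63903888, + strand) had the fewest counts, 363 to 571 in T24 and 59 to 111 in T24R2, and the largest relative spread. Its libraries were at 37.7, 43.3, 51.2, 61.4 and 45.0 CPM in T24 and at 8.07, 9.28, 10.7, 8.46 and 5.80 CPM in T24R2. Coefficients of variation were 18.9% and 21.1%, yet the lowest T24 library remained above the highest T24R2 library by more than the whole range within T24R2. Means were 47.7 ± 9.04 and 8.45 ± 1.78 CPM (SD, n = 5 each), T24R2 had 17.7% of the T24 level, and the log2 fold change was -2.49 (SE 0.12). SERPINB10, a gene on the same strand that shares 547 exon bases with SERPINB2, had at most 1 count in any library.

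SERPINE2 (ENSG00000135919.14, chr2:223975045-224039318, - strand) went the other way. Its T24 libraries were at 90.0, 71.6, 80.3, 91.3 and 76.8 CPM and its T24R2 libraries at 124, 121, 135, 135 and 127 CPM. The lowest T24R2 library was higher than the highest T24 library. Means were 82.0 ± 8.48 and 128 ± 6.45 CPM (SD, n = 5 each), a level 1.56 times that of T24 and a log2 fold change of 0.64 (SE 0.06). PLAUR, PLAT and SERPINE2 share no exon bases with another annotated gene.

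**Figure D1:**
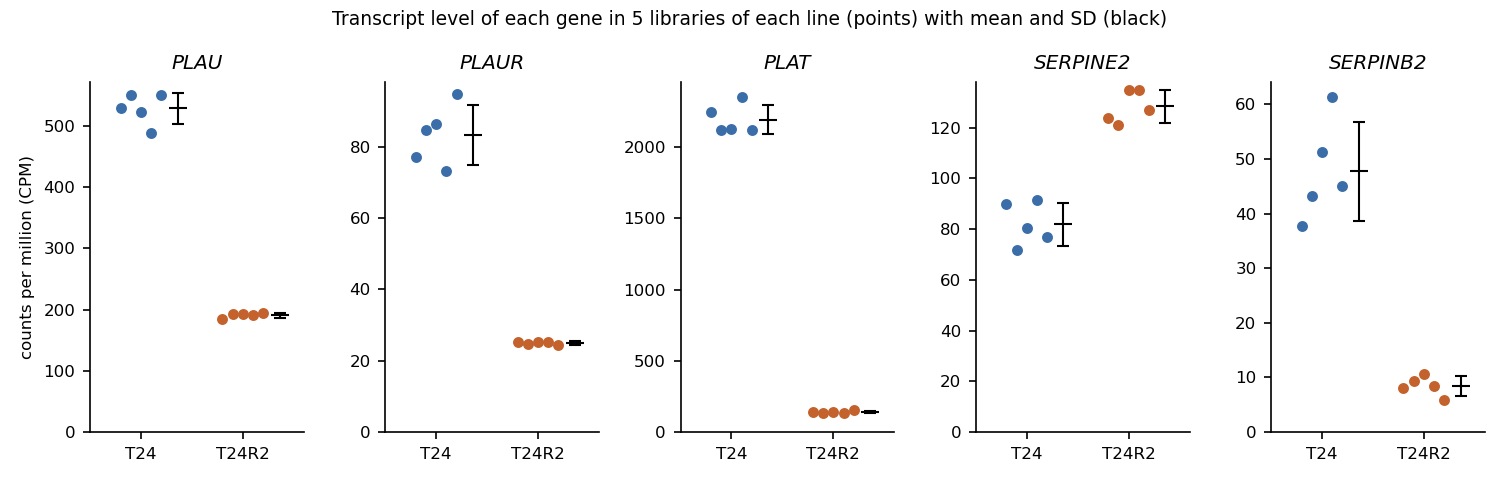
CPM of each of the 5 genes on axes that start at 0, with 1 point per library (5 of T24 in blue, 5 of T24R2 in orange) and the mean and SD in black. T24R2 lies below T24 for PLAU, PLAUR, PLAT and SERPINB2 and above it for SERPINE2, and in none of the 5 genes do the lines overlap, which was also so for 61.2% of all tested genes.

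Divided by the exon length of each gene, the levels were set against each other within a line. This length counts all annotated exon bases of a gene. It was 7770 for PLAT, 2949 for PLAU, 4457 for PLAUR, 8957 for SERPINE2 and 2741 for SERPINB2. Which transcripts were in use is not known from these counts, so orders, shares and ratios between genes depend on these lengths. In T24, PLAT came first with 282 ± 13.2 CPM per kilobase of exon, 1.57 times PLAU at 179 ± 8.58 (SD, n = 5). PLAUR followed at 18.7 ± 1.88 and SERPINB2 at 17.4 ± 3.3 CPM per kilobase, and the libraries of these neighbours in the order overlapped, whereas SERPINE2 was lowest at 9.16 ± 0.947. In T24R2 the order changed, with PLAU first at 64.7 ± 1.43 CPM per kilobase, 3.61 times PLAT at 17.9 ± 0.896. SERPINE2 came next at 14.3 ± 0.72, then PLAUR at 5.60 ± 0.101 and SERPINB2 last at 3.08 ± 0.65 CPM per kilobase, with no overlap between neighbours in that order. Among all tested genes, PLAT ranked 131st by level per kilobase in T24 and 2598th in T24R2, and PLAU 205th and 552nd. The PLAU levels rest on reads that may belong to C10orf55. With the C10orf55 counts taken off, an alternative chosen after seeing the data, PLAU was at 105 ± 4.55 CPM per kilobase in T24 and 33.4 ± 1.81 in T24R2, so that PLAT was 2.68 times PLAU in T24 and PLAU 1.87 times PLAT in T24R2, with the same gene first in each line.

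The summed level of the 5 genes was 506 ± 7.28 CPM per kilobase in T24 and 106 ± 1.94 in T24R2 (5 libraries each, ± SD). Of this sum, tPA transcripts made up 55.7% ± 1.88 in T24 and 17.0% ± 0.793 in T24R2, and urokinase transcripts 35.4% ± 2.04 and 61.3% ± 0.707. The share of SERPINE2 was 1.81% ± 0.168 in T24 and 13.5% ± 0.562 in T24R2. PLAUR was at 3.69% ± 0.406 and 5.30% ± 0.149, and SERPINB2 at 3.44% ± 0.627 and 2.92% ± 0.61, where the libraries of the lines overlapped. With the C10orf55 counts taken off, the mean sum was 432 and 74.3 CPM per kilobase, the share of urokinase 24.3% ± 1.51 and 45.0% ± 1.72, that of tPA 65.2% ± 1.54 and 24.1% ± 1.21, and that of SERPINE2 2.12% ± 0.174 and 19.2% ± 0.882.

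Ratios between genes within a library do not depend on how libraries are scaled. Their size depends on the exon lengths, and those with PLAU also depend on the overlap with C10orf55. The log2 ratio of PLAT to PLAU was 0.65 ± 0.13 in T24 and -1.85 ± 0.07 in T24R2 (5 libraries each, ± SD), so the more abundant activator transcript differed between the lines, and with the C10orf55 counts taken off it was 1.42 ± 0.12 and -0.90 ± 0.11. Urokinase and its receptor kept a closer proportion, with a log2 ratio of PLAU to PLAUR of 3.27 ± 0.1 in T24 and 3.53 ± 0.05 in T24R2, although here too the ranges, 3.13 to 3.37 and 3.47 to 3.60, did not meet. With the C10orf55 counts taken off PLAU, this ratio was 2.50 ± 0.09 and 2.58 ± 0.09, and the ranges, 2.38 to 2.61 and 2.44 to 2.65, overlapped. Both activators together exceeded both serpins by a log2 ratio of 4.13 ± 0.19 in T24 and 2.25 ± 0.1 in T24R2, or 17.5 and 4.76 times, and by 3.87 ± 0.18 and 1.56 ± 0.13 with the C10orf55 counts taken off. This ratio covers only the 4 genes in it and not every inhibitor of the activators. Per kilobase, SERPINB2 was above SERPINE2 in every T24 library (log2 ratio 0.91 ± 0.27) and below it in every T24R2 library (-2.24 ± 0.32). The T24 order rests on the exon lengths, since the T24 means in CPM were 82.0 for SERPINE2 and 47.7 for SERPINB2.

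**Figure D2:**
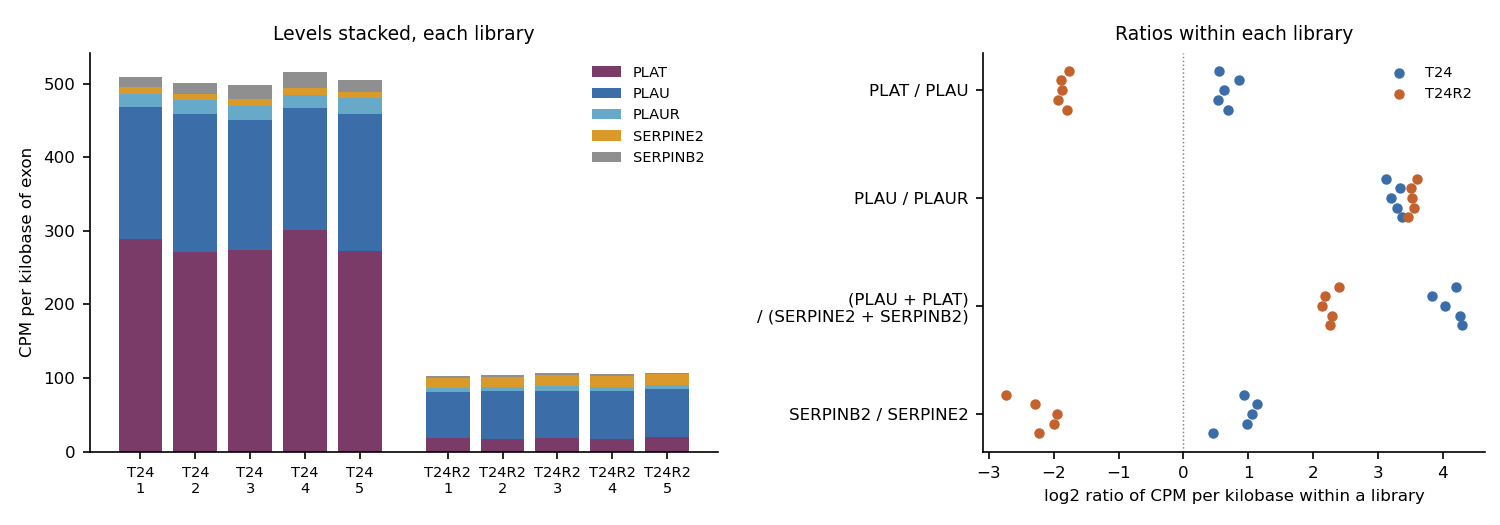
Left, CPM per kilobase of exon of the 5 genes stacked for each library, from an axis that starts at 0. Right, log2 ratios of CPM per kilobase within each library, with T24 in blue and T24R2 in orange. PLAT and PLAU fill most of each T24 bar, and PLAU is the largest block of each T24R2 bar.

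The genes around the system were taken from 9 lists of its known parts, which hold 108 genes besides the 5. Of these, 68 were tested, 33 were called lower (48.5%), 11 higher (16.2%) and 24 were not called, with a median log2 fold change of -0.42. Over all tested genes the corresponding shares were 26.5% and 24.9%, with a median of 0.01. The lists were compiled with earlier results of these data known and no set test was made. Another 26 genes had at most 3 counts in every library, and 14 of these had none at all, while the rest of the genes not tested had too few counts to pass the filter. In the edgeR test of all genes, adjusted p-values and standard errors are those for T24R2 against T24. Counts of genes that rose or fell, in each list and among the neighbours, are of called genes, so smaller changes are not in them.

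Plasminogen itself (PLG) had 0 counts in all 10 libraries, which covers only the transcripts of the cells and not protein from serum. Among the binding proteins of plasminogen, 4 of 5 tested genes were called lower and none higher (median log2 fold change -0.61). ANXA2, annexin A2, which gathers plasminogen and tPA at the membrane, went from 5570 ± 170 to 3130 ± 108 CPM (SD, n = 5 each), with a log2 fold change of -0.83 (SE 0.04, adjusted p = 4.4e-22). Alpha-enolase (ENO1), a glycolytic enzyme that also binds plasminogen at the surface, fell by 0.68 on the log2 scale (adjusted p = 7.9e-18). Keratin 8 (KRT8), whose C terminus can bind plasminogen, had a log2 fold change of -0.61 (adjusted p = 8.6e-16), which became -0.45 and was not called without scaling. PLGRKT, a plasminogen receptor of the membrane, differed by 0.29 on the log2 scale and was not called.

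Of the genes listed as other inhibitors of the activators and of plasmin, 1 of 5 tested was called higher and 2 lower (median -0.18). Among the 2 not called, TFPI2 was at 0.34 (adjusted p = 2.8e-07) and SERPINB6 at -0.18 (adjusted p = 0.005). SERPINB8, an intracellular serpin, was at 28.0 ± 3.58 CPM in T24 and 59.1 ± 5.31 CPM in T24R2 (log2 fold change 1.08, adjusted p = 1.4e-15). It is also in the list of clade B serpins below, and its action on the activators or plasmin was not measured. SERPINA5, the protein C inhibitor, which also blocks urokinase, was scarce at 3.65 ± 1.32 CPM in T24 and fell to 0.229 ± 0.195 CPM (log2 fold change -3.97, SE 0.42, adjusted p = 4.4e-11). SERPINI1, neuroserpin, an inhibitor of tPA, fell by 0.88 on the log2 scale (SE 0.32, adjusted p = 0.013), though its libraries overlapped between the lines.

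Of 3 tested proteases able to activate the urokinase proenzyme, 2 fell and none rose (median -0.79). Cathepsin B (CTSB), a lysosomal protease, was at 718 ± 34.5 CPM in T24 and 326 ± 15.9 CPM in T24R2 (log2 fold change -1.14, adjusted p = 1.6e-24). Factor XII (F12) fell by 0.79 on the log2 scale (adjusted p = 8.9e-05).

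The receptors that take up urokinase and the serpin complexes were mixed, with 2 of 6 tested genes higher and 3 lower (median -0.68). MRC2, which encodes the collagen receptor uPARAP/Endo180, a partner of uPAR on the cell surface, went from 514 ± 26.3 CPM in T24 to 29.8 ± 2.52 CPM in T24R2, a log2 fold change of -4.11 (SE 0.06, adjusted p = 9.1e-40). LRP1, the main endocytic receptor of activator and inhibitor complexes, fell by 0.90 on the log2 scale (adjusted p = 9.7e-20), and its relative VLDLR fell by 0.93 (adjusted p = 2.1e-08). IGF2R, the mannose 6-phosphate receptor, which can bind uPAR, rose by 0.79 (adjusted p = 1.2e-19). SORL1, a sorting receptor, rose by 0.91 at 0.875 and 1.64 CPM (adjusted p = 0.02), and this call ended when T24 replicate 1, 2 or 4 or T24R2 replicate 4 was left out, with adjusted p-values of 0.066, 0.073, 0.053 and 0.069.

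uPAR has no part inside the cell and acts through neighbours such as integrins. Of 9 tested partners, 3 were called higher and 4 lower (median 0.28). The other 2 were higher without being called, CAV1 by 0.48 (adjusted p = 1.6e-13) and EGFR by 0.28 (adjusted p = 2.3e-06). Both chains of a vitronectin receptor rose, ITGB3 from 70.9 ± 6.55 to 293 ± 9.52 CPM (log2 fold change 2.05, adjusted p = 1.7e-30) and ITGAV from 201 ± 12.6 to 368 ± 13.7 CPM (0.88, adjusted p = 4.9e-20). ITGB5, another chain that pairs with ITGAV to bind vitronectin, fell from 210 ± 9.57 to 135 ± 8.0 CPM (-0.64, adjusted p = 4.5e-15). The leukocyte integrin chain ITGB2 rose from 2.56 to 6.30 CPM (1.28, adjusted p = 1.7e-06). Both chains of the fibronectin receptor fell, as ITGA5 fell by 1.20 and ITGB1 fell by 1.13 on the log2 scale, and ITGA3, a laminin receptor chain that binds uPAR, fell by 0.71 (adjusted p = 1.6e-22, 2.3e-24 and 1.1e-19).

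uPAR belongs to the LU domain family, and of 9 tested relatives 5 fell and 1 rose (median -0.71). CD59, a lipid-anchored inhibitor of complement, fell from 683 ± 24.4 to 92.5 ± 3.06 CPM (log2 fold change -2.88, adjusted p = 8.5e-38). LYPD3 (C4.4A), a close relative of uPAR, fell from 6.81 to 0.301 CPM (-4.47, SE 0.33, adjusted p = 2.4e-15), and PSCA, prostate stem cell antigen, fell by 1.71 on the log2 scale (adjusted p = 1.2e-12). PINLYP, which encodes a phospholipase inhibitor and lies near PLAUR on chromosome 19, rose by 0.83 (SE 0.17, adjusted p = 3.2e-05).

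SERPINB2 is a clade B serpin, and of 6 other tested genes of the clade 2 fell and 1, SERPINB8, rose (median -0.30). SERPINB9, an inhibitor of granzyme B, had 304 counts over the T24 libraries and 2 over those of T24R2, a CPM ratio of 178 with an exact 95% interval of 48.7 to 1470 that covers counting error only (adjusted p = 1.1e-17). The other that fell was SERPINB7, which lies next to SERPINB2 (log2 fold change -2.56, SE 0.34).

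Among substrates of urokinase and plasmin, 6 of 11 tested genes fell and 3 rose (median -0.98). The collagenases fell, MMP1 from 15.6 ± 1.85 to 0.217 ± 0.21 CPM (log2 fold change -6.06, adjusted p = 1.4e-22) and MMP13 from 5.48 to 0.215 CPM (-4.56, SE 0.37, adjusted p = 5.3e-14). MMP14, the membrane-type protease that activates MMP2, fell from 570 ± 5.2 to 184 ± 9.29 CPM (-1.63, adjusted p = 4.5e-30). Fibronectin (FN1) rose from 8070 ± 656 to 16400 ± 1210 CPM (1.02, adjusted p = 4.7e-22). FGF2, a growth factor held in the matrix, rose by 1.15 (adjusted p = 3.5e-17), and MST1, macrophage-stimulating protein, by 1.03 (adjusted p = 1.8e-07). Transcripts of HGF, the relative of plasminogen that urokinase can activate, had 0 counts in all libraries.

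AP-1, ETS and NF-kB factors are known regulators of PLAU, PLAUR and SERPINB2. Of 16 genes, all tested, 5 were called lower (31.2%) and 1 higher (6.25%), with a median of -0.17. Over all tested genes these shares were 26.5% and 24.9%. Genes called in either direction made up 37.5% of this list and 51.4% of all tested genes. A part of these factors in the differences of the 5 genes was not tested. The AP-1 factor FOSL1 fell from 456 ± 30.8 to 184 ± 4.29 CPM (log2 fold change -1.31, adjusted p = 6.6e-26), ETS1 from 389 ± 20.1 to 168 ± 8.99 CPM (-1.21, adjusted p = 1.6e-24), and NFKB2 from 207 ± 7.95 to 73.8 ± 2.72 CPM (-1.49, adjusted p = 4.3e-27). FOS rose from 10.9 ± 1.6 to 16.2 ± 3.73 CPM (0.57, adjusted p = 0.00021), a call that ended without T24R2 replicate 3 (0.45). Of the 35 called list genes named for the size of their change, 4 (F12, MRC2, PSCA and FGF2) have over 10% of their exon length covered by a gene of the opposite strand.

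**Figure D3:**
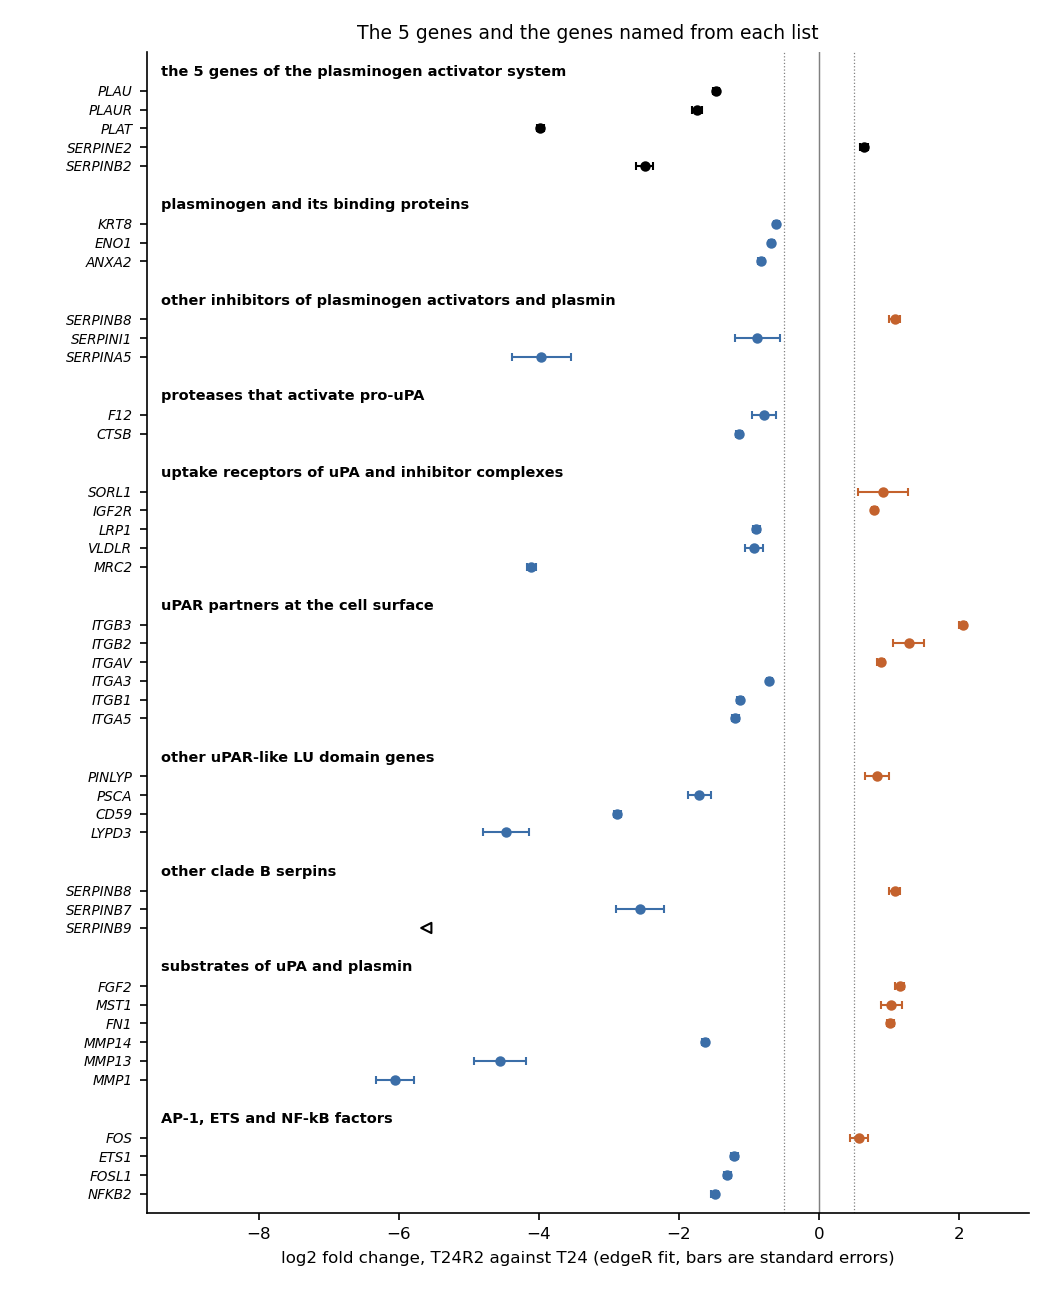
Log2 fold changes of T24R2 against T24 with standard errors, for the 5 genes (black) and for the genes named from each list (blue lower, orange higher), with dotted lines at the minimum of 0.5 in either direction. The open triangle marks, for SERPINB9, the end of its counting interval nearest to 0. The log2 fold change of MRC2 (-4.11) is close to that of PLAT (-3.98).

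The nearest tested genes on the chromosome, 3 on each side of each of the 5 genes, gave 9 higher and 10 lower of 30 (30.0% and 33.3%), near the 24.9% and 26.5% of all tested genes. The counts were 11 and 7 without scaling and 11 and 8 with upper-quartile normalization, so which direction held more genes depended on the scaling. Around PLAU 4 of 6 fell and none rose. These were CAMK2G (log2 fold change -0.85, adjusted p = 4.4e-16), CAMK2G-AS1 (-1.03, adjusted p = 3.1e-07), C10orf55 and AP3M1 (-0.57, adjusted p = 2.5e-11), whereas VCL, the vinculin gene, was at -0.18 and not called, as was ENSG00000272916.5 at -0.40.

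Around PLAT 4 of 6 fell and none rose. AP3M2, 3.04 kb away, fell by 1.08 on the log2 scale (adjusted p = 6.5e-17), and IKBKB, a kinase of the NF-kB pathway, fell by 1.25 (adjusted p = 1.1e-21). POLB, a DNA repair polymerase, fell by 1.21 (adjusted p = 9.3e-13) and VDAC3 fell by 0.66 (adjusted p = 1.3e-13). All of these falls were smaller than that of PLAT. KAT6A was at 0.03 and ENSG00000260588.1 at 0.86 with an SE of 0.41, and neither was called.

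Around PLAUR none of 6 fell and 3 rose, KCNN4, a potassium channel, by 2.56 (adjusted p = 2.3e-24), SRRM5 by 1.03 (adjusted p = 3.7e-11) and ZNF428 by 0.99 (adjusted p = 2.9e-12). CADM4 was at -0.15, SMG9 at -0.04 and ZNF283 at 0.29, none of them called.

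Around SERPINE2 the genes above it rose, CUL3 by 0.62 (adjusted p = 2.7e-13), ENSG00000274629.1 by 0.60 (adjusted p = 1.1e-06), and CCDC195, with 0 counts in T24 and 2.22 CPM in T24R2, to a level at least 6.87-fold higher against a floor of 3 counts per library. WDFY1 fell by 0.52 (adjusted p = 6e-11), while MRPL44 at 0.19 and ENSG00000228802.1 at 0.00 were not called. Around SERPINB2, SERPINB7 fell by 2.56 on the log2 scale (SE 0.34, adjusted p = 1.4e-08), and SERPINB8 on the other side rose by 1.08, as did VPS4B (0.55, adjusted p = 5.7e-11) and ENSG00000283667.1 (1.25, adjusted p = 1.2e-05). SERPINB5, maspin, at -0.33 and HMSD at 0.59 with an SE of 0.29 were not called. Without scaling, the falls of AP3M1, VDAC3 and WDFY1 were below the minimum fold change, at -0.40, -0.49 and -0.36. The call of WDFY1 also ended with upper-quartile normalization, with a mean of at least 100 counts, and without T24R2 replicate 1 or 4 (log2 fold changes of -0.45, -0.49, -0.50 and -0.49), and that of AP3M1 with upper-quartile normalization (-0.49). Of the 19 called neighbours, 7 have over 10% of their exon length in common with another gene, among them CAMK2G-AS1, which lies wholly within exons of CAMK2G on the other strand, and ZNF428 and SRRM5, which overlap each other on opposite strands.

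**Figure D4:**
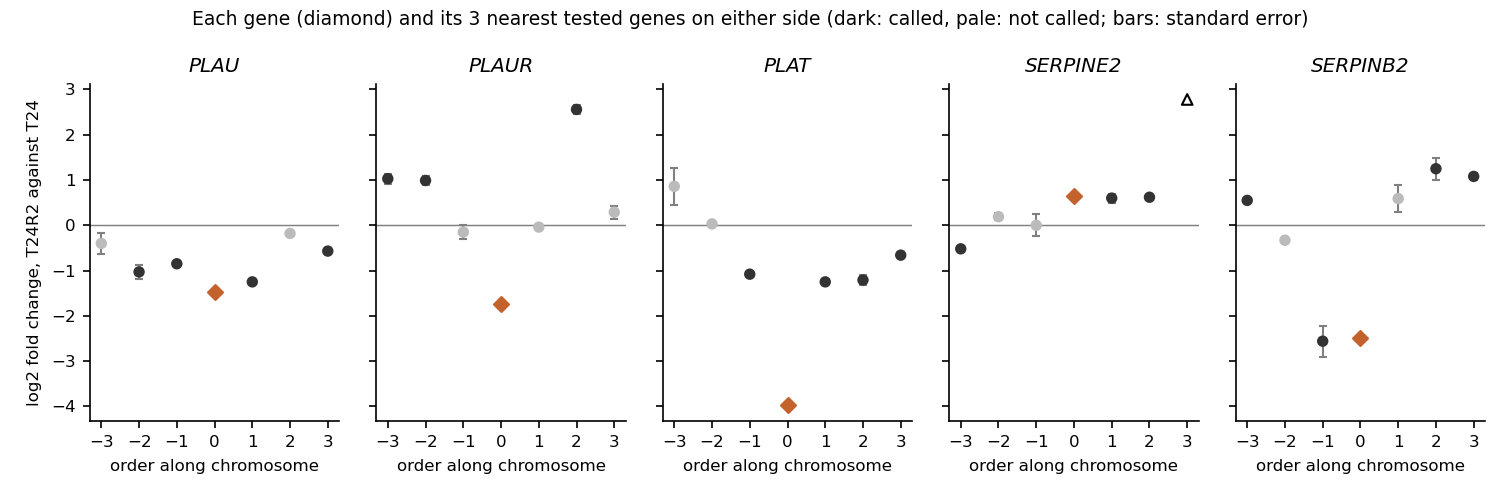
Log2 fold changes of each of the 5 genes (diamond) and of the 3 nearest tested genes on either side, in order of position along the chromosome, with standard errors, dark where called and pale where not. The open triangle is the lower bound of CCDC195. Around PLAU and PLAT 4 of 6 genes were called lower and none higher, around PLAUR 3 higher and none lower, and around SERPINE2 and SERPINB2 3 higher and 1 lower each, where 24.9% of all tested genes were called higher and 26.5% lower. Without scaling, AP3M1 near PLAU, VDAC3 near PLAT and WDFY1 near SERPINE2 were not called.

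The genes most like each member were those with the smallest root mean square difference of log2 CPM over the 10 libraries, each gene set to 0 at its T24 mean. For PLAT, MRC2 was among them (0.098), with a log2 fold change of -4.11. For PLAU they were TUBB4B, a beta tubulin (0.031), and SMS, spermine synthase (0.037), and for PLAUR NCEH1 (0.055) and LTBP2 (0.072). For SERPINE2 they were SUPT7L (0.058) and SOS1 (0.060). For SERPINB2 the nearest, the transcription factor gene SOX4 (0.166) and METTL27 (0.202), were less close.

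The markers of the labelled cell type were present in part. Among 16 urothelial and epithelial markers, summed at 5340 CPM in T24 and 3120 CPM in T24R2, KRT7 was most abundant at 2240 and 1370 CPM, KRT20 was at 0 in all libraries and CDH1 had at most 2 counts. GATA3 went from 22.1 to 0.214 CPM and EPCAM from 4.45 to 0.130 CPM. The 3 mesenchymal markers summed to 701 CPM in T24 and 4320 CPM in T24R2, led by VIM at 482 and 3960 CPM. The 4 leukocyte markers summed to 1.57 and 1.08 CPM, led in T24 by CD14 at 1.12 CPM, and the 4 fibroblast markers to 3.47 and 0.365 CPM, led in T24 by PDGFRB at 3.43 CPM with DCN and LUM at no more than 1 count in any library. The 3 endothelial markers summed to 245 CPM in T24, of which CDH5 made up 239, and to 1.86 CPM in T24R2, while VWF was at 0.449 and 0.133 CPM. PDGFRA went the other way, from 0 to 0.365 CPM, the whole fibroblast sum of T24R2, and PTPRC from 0.0439 to 0.475 CPM. The epithelial, leukocyte, fibroblast and endothelial sums were lower in T24R2, as were PLAT, PLAU, PLAUR and SERPINB2, the fibroblast sum through PDGFRB alone and the leukocyte sum through CD14 alone (1.12 to 0.0929 CPM). CD68 and CD3E, like PTPRC, were not lower (0.386 to 0.453 and 0.0208 to 0.0576 CPM). The part of these marker changes in the differences of the 5 genes was not tested.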

How the data were processed

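RNA was measured by RNA-seq in 5 libraries of T24 and 5 of T24R2. The tables deposited by the authors hold unnormalized, unpooled fragment counts of each gene, made with STAR 2.7.0 on hg38, SAMtools 1.10 and featureCounts 2.0.1 on GENCODE 39 in paired mode with strand option 1. Symbols came from the Ensembl identifier and matched 61369 of 61533 genes, and 33622 genes had a count. Here, 16181 genes passed filterByExpr and were fitted with edgeR 4.0.16 in R 4.3.3 (TMM, quasi-likelihood test, line as the only term), and p-values were adjusted over all of them. TMM factors were 0.936 to 0.951 in T24 and 1.041 to 1.067 in T24R2, and the biological coefficient of variation was 6.61%. The 20 replicate pairs within a line had a chi-square per degree of freedom between 1.99 and 6.51, beyond sampling noise. CPM used TMM-scaled totals, and a total count of 3 per library was the floor. The fit was tested on simulated counts, but the outcome is not given here and no result rests on it. The members and gene lists were chosen with earlier results of these data known. Named from each list were the called genes with the 3 largest rises and falls at a mean of at least 1 CPM. Other named genes were the 3 nearest tested genes on each side, the 2 most alike genes, genes with shared exons and the cell type markers. List genes at 3 counts or fewer in every library were named where absence is stated (PLG and HGF). PLGRKT, ITGB5, TFPI2, SERPINB6, CAV1 and EGFR were named after their values were seen. Alternatives were other scalings, DESeq2 1.42.0, limma-voom (limma 3.58.1), other count filters, a replicate block, no fold change minimum, opposite-strand counts taken off and each library left out. Tables and plots used Python 3.11.15, numpy 2.4.6, pandas 2.3.3 and matplotlib 3.10.9. Not every gene of the system, inhibitors included, is analysed here, and some results that the naming rule covers are not reported here.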

Additional observations from a re-analysis of the deposited data

How the results depend on the processing

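The direction of each of the 5 genes held under every alternative run. Without scaling beyond library size, which moved the median of all genes from 0.01 to 0.18 on the log2 scale, PLAU was at -1.31, PLAUR at -1.57, PLAT at -3.81 and SERPINE2 at 0.81, and with upper-quartile normalization (median 0.09) PLAU was at -1.40 and PLAT at -3.90. With opposite-strand counts taken off, PLAU was at -1.65, and within the lines (T24, then T24R2, an alternative added after seeing the data) its level was 105 and 33.4 CPM per kilobase, the log2 ratio of PLAU to PLAUR 2.50 and 2.58, of PLAT to PLAU 1.42 and -0.90, and of both activators to both serpins 3.87 and 1.56. With a mean of at least 100 counts, where fewer genes were tested, 2350 genes were called higher and 2641 lower, and with no fold change minimum 6128 genes and 20 genes of the lists were called higher and 6084 and 41 lower. Leaving out each library in turn gave -1.50 to -1.45 for PLAU, -1.78 to -1.69 for PLAUR, -4.00 to -3.95 for PLAT, 0.59 to 0.68 for SERPINE2 and -2.58 to -2.38 for SERPINB2, 4042 to 4138 genes higher and 4293 to 4374 lower, 10 to 12 higher and 33 lower in the lists, and 9 to 10 higher and 9 to 11 lower among the neighbours. Same-numbered libraries shared only a number (correlations of their deviations -0.021 to 0.0155, with 1 of 5 numbers matching best), and a replicate block gave 3979 genes higher and 4261 lower, with the 11 and 33 of the lists and the 9 and 10 of the neighbours at the same counts. DESeq2 called 3967 genes higher and 4280 lower, limma-voom 4025 and 4281, and the fit with no count filter 5338 and 5581. At this depth SERPINB2 in T24R2, with 59 to 111 counts, was the least precise of the 5 genes.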
